A study of Mus musculus with 2 samples.

Results

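Phospholipases A2 cut the fatty acid from the middle position of membrane phospholipids and leave a lysophospholipid behind. When the fatty acid is arachidonic acid, it feeds the synthesis of prostaglandins and leukotrienes. Secreted forms are small, calcium-dependent enzymes that act outside the cell on bacteria, lipoproteins and dietary lipid, whereas the cytosolic forms and the calcium-independent forms work on the membranes of the cell that makes them. The 10 genes described here are 7 secreted members (Pla2g1b, Pla2g2a, Pla2g2d, Pla2g5, Pla2g10, Pla2g12a and Pla2g12b), 2 cytosolic members (Pla2g4a and Pla2g4c) and 1 calcium-independent member (Pla2g6). They were taken by name from the 27275 genes of the deposited table, and all 10 were found there. The list was drawn up with the difference between the libraries already known, so its values are given as a description and no test is made on them.

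The libraries came from the proximal small intestine of naive mice of 2 genotypes, with 1 library each. The library called wild type carries the genotype label Spib+Villin-Cre, and the one called knockout is labelled Spibfl/flVillin-Cre. Both labels therefore name Cre under villin control, a promoter of the intestinal epithelium, which leaves immune cells outside the deletion. Spib encodes an ETS family transcription factor of M cells, B cells and plasmacytoid dendritic cells. The age, strain and sex of the mice, and how many went into a library, are not given in the labels. Values are FPKM, the reads of a gene per kilobase of its length and scaled to the size of its library, so that levels can be set beside each other between genes. The values imply library totals of 17425640 reads for the wild type and 17658566 for the knockout. With 1 library per genotype nothing below has a replicate, and "wild type" and "knockout" stand for these single libraries throughout. Intervals are exact and at 95%. They reflect the number of reads alone and leave out both PCR duplication and the variation between mice.

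The targeted gene Spib had 4.94 FPKM in the wild type and 0.592 in the knockout. The tissue was intestinal by its markers, with villin (Vil1) at 924 and 856 FPKM. Of the marker lists, B cell genes summed to 28.2 FPKM in the wild type and 10.4 in the knockout, led by the antigen receptor genes Cd79a (9.10 and 3.54) and Cd79b (7.38 and 2.65), and tuft cell genes summed to 13.02 and 71.3 FPKM. In whole tissue, fewer cells of a type and less RNA per cell cannot be told apart.

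The family stood at opposite ends of the table in a pair of its members and near the middle in the others. Pla2g4c was higher in the knockout by more than any other gene, Pla2g5 was 10.1-fold lower there, and Pla2g2a was lower by less than 2-fold. The ratio used for these counts is log2((knockout FPKM + 1) / (wild-type FPKM + 1)), taken for genes with at least 1 FPKM in at least 1 library. Pla2g1b did not reach that level, which leaves 9 members of 13479 genes compared. Of the 9, 1 was at least 2-fold higher, 1 at least 2-fold lower and 7 lay within 2-fold. Over all genes compared, 1.61% were at least 2-fold higher and 2.51% at least 2-fold lower, 4.12% in all. Since the members were chosen from this comparison, nothing is read from those counts. The median log2 ratio of the 9 members was -0.03, and that of all genes compared was -0.05.

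**Figure D1:**
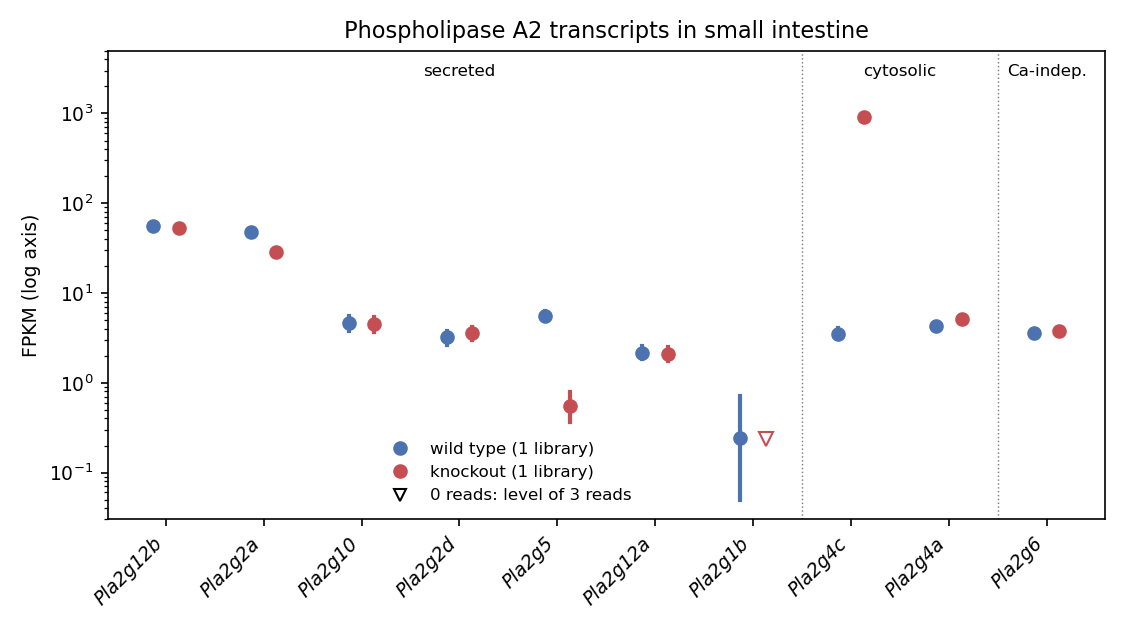
FPKM of each member on a log axis in the wild type (blue) and the knockout (red), 1 library each, with exact Poisson 95% intervals of the read counts as bars (Pla2g6 has none, because its read numbers are known only as a smallest pair). Pla2g4c goes from 3.54 to 924 FPKM, Pla2g5 from 5.55 to 0.550 and Pla2g2a from 48.2 to 28.6, while the circles of the other members with reads in both libraries lie close together.

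Pla2g4c encodes cytosolic phospholipase A2 gamma, which lacks the calcium-binding C2 domain that brings Pla2g4a to membranes. The gene (ENSMUSG00000033847) lies on the plus strand of chromosome 7, from 13324655 to 13360672 in mm10. It had 3.54 FPKM in the wild type, from 231 reads, and 924 in the knockout, from 61125 reads. The knockout value was 261 times that of the wild type (interval 229 to 298), a log2 ratio of 7.67. The next highest log2 ratio in the table was 5.19. By abundance Pla2g4c went from rank 8711 of all genes in the wild type to rank 44 in the knockout, where it held 0.346% of all reads. In the wild type its share of the reads was 0.00133%.

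Genes next to Pla2g4c had far smaller differences or few reads. The protein-coding gene before it, DNA ligase Lig1, ends 13221 bases away and had 8.79 FPKM in the wild type and 8.996 in the knockout. The protein-coding gene after it, the calcium-binding protein gene Cabp5, had 0 reads in the wild type and 5 in the knockout. A pseudogene copy, Pla2g4c-ps, begins 438 bases past the end of Pla2g4c on the same strand, and it had 1 read in the wild type and 6 in the knockout. Of the 3698 distinct stretches of 50 bases in the annotated Pla2g4c transcripts, 116 (3.14%) also occur in transcripts of other genes, 89 of them in the pseudogene. Reads of that kind could be assigned to either copy, and how the 61125 knockout reads of Pla2g4c divide over those stretches was not tested. A small annotated feature inside a Pla2g4c intron, Gm24909, was listed at 0 in the wild type and at 1.42 FPKM in the knockout. It shares no exon base with Pla2g4c, and its values were looked up after the result for Pla2g4c was known.

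RefSeq gives a pair of start sites each for Pla2g4c and for Pla2g5, the members with the most different levels. The sequence before each is shown so that the letters of an ETS site can be looked for there. Both RefSeq starts of Pla2g4c lie inside its annotated span, which begins at 13324655. The bases before 13324655 were not searched. Each line holds the longest exon-free stretch of the 250 bases before the start, 5′ to 3′ on the strand of the gene, in build GRCm38.p6, and capitals mark GAGGAA, the core of the sites that Spib and its relative PU.1 are known to bind.
Pla2g4c, chr7:13325417-13325628 (plus strand): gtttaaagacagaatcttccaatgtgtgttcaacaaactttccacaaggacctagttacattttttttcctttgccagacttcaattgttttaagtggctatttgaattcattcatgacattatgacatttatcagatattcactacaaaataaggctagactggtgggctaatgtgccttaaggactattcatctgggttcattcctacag
Pla2g4c, chr7:13329072-13329317 (plus strand): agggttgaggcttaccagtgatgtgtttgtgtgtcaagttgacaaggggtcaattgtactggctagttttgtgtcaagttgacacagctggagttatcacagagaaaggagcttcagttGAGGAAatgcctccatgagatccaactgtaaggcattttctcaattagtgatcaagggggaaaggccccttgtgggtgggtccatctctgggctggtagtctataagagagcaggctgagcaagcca
Pla2g5, chr4:138863483-138863719 (minus strand): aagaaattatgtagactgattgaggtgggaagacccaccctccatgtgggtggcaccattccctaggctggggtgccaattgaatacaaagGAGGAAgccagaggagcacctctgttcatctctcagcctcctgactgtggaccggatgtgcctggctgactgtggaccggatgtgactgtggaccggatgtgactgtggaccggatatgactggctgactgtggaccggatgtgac
Pla2g5, chr4:138819258-138819507 (minus strand): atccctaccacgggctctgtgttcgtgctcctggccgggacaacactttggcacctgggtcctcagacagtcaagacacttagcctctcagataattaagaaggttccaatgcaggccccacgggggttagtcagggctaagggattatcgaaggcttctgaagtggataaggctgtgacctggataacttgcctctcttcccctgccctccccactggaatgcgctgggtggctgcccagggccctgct

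The first Pla2g4c start, at 13325667, had no match to GAGGAA on either strand, and the second, at 13329322, had 1 that begins 131 bases before the start. Of the Pla2g5 starts, the outer one at 138863469 had 1 match, 159 bases before it, and the inner one at 138819257 had none. RefSeq promoter windows were found for 9 of the 10 members, 12 windows in all, and 4 of the 12 held GAGGAA or its reverse complement, those of Pla2g12a and Pla2g1b besides the ones shown. Of 32851 windows of the same length before all starts in the table, 23.3% held it. The STAT letters TTCNNNGAA, present in 7.02% of all windows, and the wider STAT6 form of it, with 1 more base in the gap and present in 5.85%, were in none of the 12. TATAAA, present in 12.4% of all windows, was in 1 of the 12, before an inner start of Pla2g4a. All motifs were searched on both strands, and no match in the members overlapped another. These are matches of letters in short windows and show no binding.

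Pla2g4a encodes cytosolic phospholipase A2 alpha, the arachidonate-selective enzyme that supplies most eicosanoid synthesis. The gene spans 149829618 to 149961290 on the minus strand of chromosome 1. It had 4.31 FPKM in the wild type, from 480 reads, and 5.09 in the knockout, from 575 reads. The ratio was 1.18-fold higher in the knockout, with an interval of 1.05 to 1.34. That size is common in these libraries, since 41.4% of all genes compared had a larger absolute log2 ratio. So Pla2g4a and Pla2g4c, at similar levels in the wild type, stood far apart in the knockout. Tuft cells are known for strong eicosanoid synthesis, and 8 of the 9 compared tuft cell markers of a list of 11 were at least 2-fold higher in the knockout. Over all genes compared that share was 1.61%. The filter lets in a marker below 1 FPKM in the wild type through its knockout level alone, so the count leans to higher values. With no filter the median log2 ratio of the list was 1.58, against 1.70 with it. The most abundant tuft cell marker, Rgs13, had 3.36 and 23.0 FPKM, and the next, Sh2d6, had 2.71 and 14.9. No tuft cell marker was at 0 in either library, and their part in the Pla2g4a and Pla2g4c values was not tested. The gene of the inducible cyclooxygenase, Ptgs2, begins 138740 bases beyond Pla2g4a and had 1.25 FPKM in the wild type and 2.45 in the knockout, and the coding gene on the other side, Brinp3, had 4 reads and 0 reads.

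Pla2g6, the calcium-independent group VI enzyme of membrane repair and remodelling, had 3.63 FPKM in the wild type and 3.81 in the knockout. The ratio was 1.05, with an interval of 0.733 to 1.505 that spans 1. That interval rests on 63 and 67 reads, the smallest whole numbers that give the observed ratio, and true read numbers may be a multiple of these.

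**Figure D2:**
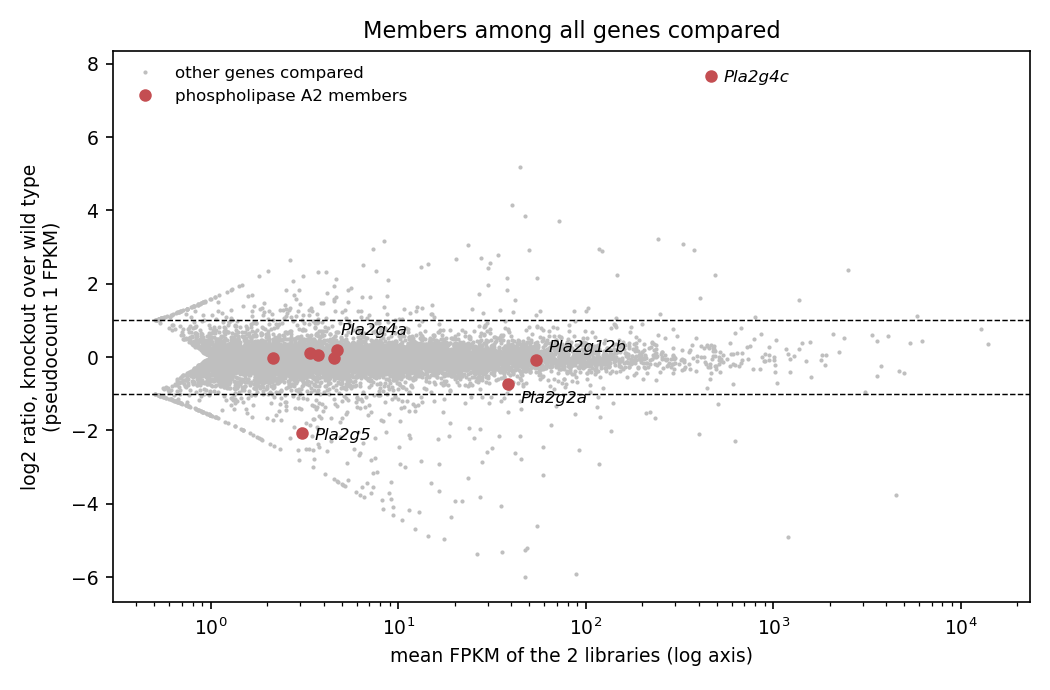
Log2 ratio of knockout over wild-type FPKM, with a pseudocount of 1, against the mean FPKM of the 2 libraries on a log axis, for the 9 members compared (red) and the other genes (grey). Dashed lines mark 2-fold. Pla2g4c at 7.67 stands above every other gene, Pla2g5 lies at -2.08, and 7 members lie between the lines.

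Among the secreted members, Pla2g5 had the largest difference. It encodes a group V enzyme that hydrolyses phosphatidylcholine and is made by macrophages, epithelial cells and muscle. The gene (ENSMUSG00000041193) spans 138799244 to 138863482 on the minus strand of chromosome 4. It had 5.55 FPKM in the wild type, from 279 reads, and 0.550 in the knockout, from 28 reads. It was 10.1-fold lower in the knockout, with an interval of 6.84 to 15.5, and its log2 ratio was -2.08. That ratio passed 2-fold with a pseudocount of 1 and did not with a pseudocount of 5, at -0.93. Of the genes compared, 101 had a lower log2 ratio. No 50-base stretch of its transcripts occurs in the annotated transcripts of another gene, though reverse complements were not searched.

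Pla2g2a encodes the group IIA enzyme, a bactericidal protein of Paneth cell granules that attacks the membranes of Gram-positive bacteria. Some common inbred strains carry an inactivating variant of it, and the annotation lists the gene as a polymorphic pseudogene, so a level of its RNA need not mean a level of enzyme. The gene (plus strand of chromosome 4, 138831857 to 138835186) lies within an intron of Pla2g5 on the opposite strand, and the genes share no exon base. It had 48.2 FPKM in the wild type, from 779 reads, and 28.6 in the knockout, from 468 reads. That is 1.69-fold lower in the knockout, with an interval of 1.502 to 1.90, and 6.50% of all genes compared had a larger absolute log2 ratio. The 8 listed markers of Paneth cells summed to 19780 FPKM in the wild type and 29981 in the knockout. Of them, 6 had a log2 ratio above 0 and 2 below, 1 was at least 2-fold higher, none was 2-fold lower and none was at 0. Their most abundant genes were the defensin Defa24, at 9553 and 16277 FPKM, and lysozyme Lyz1, at 5754 and 4250.3, which was lower in the knockout as Pla2g2a was. The marker past 2-fold, named after its values were seen, was the angiogenin Ang4, at 809 and 4221 FPKM. The part of Paneth cells in the Pla2g2a values was not tested.

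These genes belong to a cluster of secreted phospholipases that spans 158 kb of chromosome 4, with 7 genes in the table. Their differences were not alike. Pla2g2f, known from epidermis, was the second most abundant gene of the cluster, with 13.2 FPKM in the wild type and 11.1 in the knockout, 1.18-fold lower with an interval of 1.05 to 1.34. Pla2g2d, the next gene before Pla2g5, had 3.20 and 3.56. Pla2g2e, 14.5 kb beyond the start of Pla2g5, went the other way, from 1 read in the wild type to 23 in the knockout, or 0.0626 to 1.42 FPKM. Its ratio of 22.7 has an interval of 3.69 to 935, because it rests on a single wild-type read. Pla2g2c had 3 reads in each library, and the predicted gene Gm13030 had 0 and 2. So within the cluster the intervals of Pla2g5, Pla2g2a and Pla2g2f lay below 1, that of Pla2g2e lay above 1, and those of Pla2g2d and Pla2g2c spanned 1.

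**Figure D3:**
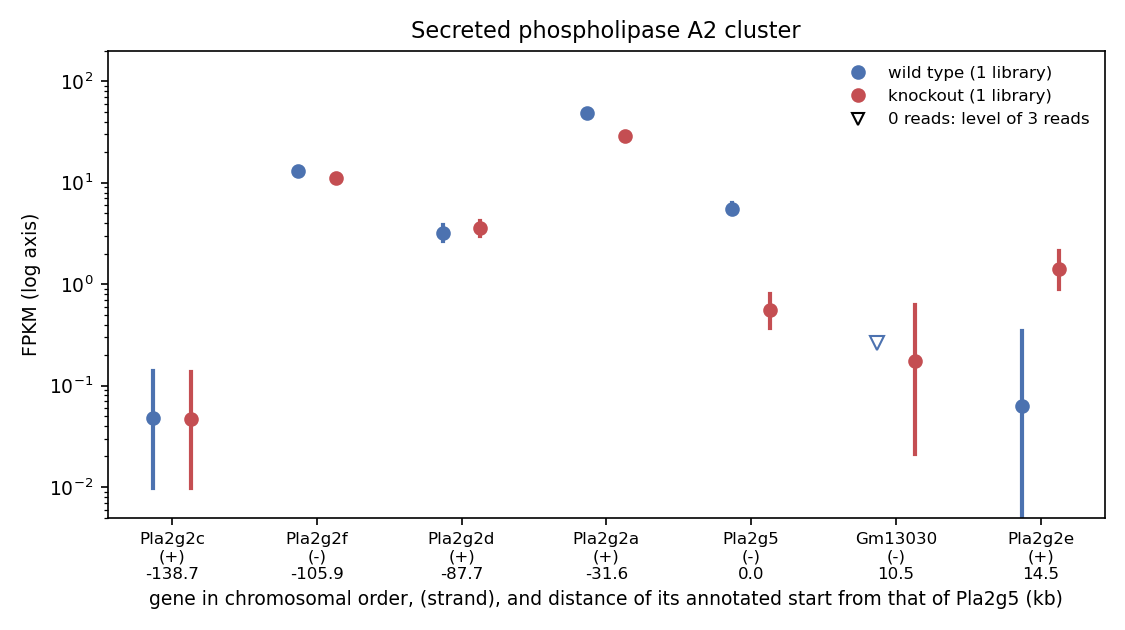
FPKM on a log axis of the 7 genes of the secreted phospholipase cluster, in chromosomal order of their starts, in the wild type (blue) and the knockout (red), 1 library each, with exact Poisson 95% intervals as bars and an open triangle at the level of 3 reads where no read was found. Pla2g5 and Pla2g2a are lower in the knockout, Pla2g2e is higher from 1 read to 23, and Pla2g2d differs little.

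Pla2g2d, a group IID enzyme that dendritic cells and macrophages of lymphoid tissue express, had 3.20 FPKM in the wild type from 125 reads and 3.56 in the knockout from 141 reads. The ratio was 1.11, with an interval of 0.869 to 1.43. Markers of the cells known to make it were lower in the same library, with 82.7 and 57.6 FPKM summed over 11 macrophage and dendritic cell genes. The highest of these were C1qa, at 42.6 and 28.4 FPKM, and Csf1r, at 15.8 and 13.03. Their part in the value of Pla2g2d was not tested.

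Pla2g12b was the most abundant member in the wild type and the most abundant secreted member in both. It encodes a catalytically inactive relative that helps liver and intestine to load lipid onto lipoproteins. Its FPKM was 55.6 in the wild type, from 1145 reads, and 52.5 in the knockout, from 1095 reads, a ratio of 0.944 with an interval of 0.868 to 1.03. Pla2g12a, its widely expressed active relative, had 2.17 and 2.11 FPKM, a ratio of 0.973 with an interval of 0.763 to 1.24. Pla2g10, a potent enzyme on phosphatidylcholine that gut epithelium is known to make, had 4.58 and 4.48 FPKM, a ratio of 0.979 with an interval of 0.753 to 1.27. These 3 genes thus differed by less than their counting error. The 8 markers of enterocytes all lay within 2-fold but were spread wider, with log2 ratios from -0.53 to 0.53. Their sums were 10212 and 8661 FPKM, led by Fabp2 at 5325 and 4103 and Anpep at 1888 and 1307. The antisense transcript Pla2g10os, which shares no exon base with Pla2g10, had 3.63 and 7.49 FPKM, from at least 11 and 23 reads.

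Pla2g1b, the pancreatic enzyme that digests dietary phospholipid, was near the limit of detection. It had 3 reads and 0.241 FPKM in the wild type and 0 reads in the knockout, where 3 reads would be 0.238 FPKM. No fold is given, since neither level is above the 3 reads that a count of 0 allows. Pancreatic acinar markers were low in both libraries, with sums of 18.7 and 24.0 FPKM over 17 genes. Prss1, Prss3, Amy2a5 and Amy2b were at 0 in both. Of the 8 acinar markers compared, 6 had a log2 ratio below 0 and 2 above, with a median of -0.43. The higher sum in the knockout came from the most abundant of them, the lipase relative Pnliprp1, at 1.81 and 13.4 FPKM, while elastase Cela1 had 4.32 and 4.67. The chymotrypsinogen Ctrb1, named after its values were seen as the 1 marker at least 2-fold lower, had 3.66 and 1.29. The part of acinar cells in the Pla2g1b reads was not tested.

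The order of the members differed between the libraries in the place of 3 genes. In the wild type it ran from Pla2g12b and Pla2g2a through Pla2g5, Pla2g10, Pla2g4a, Pla2g6, Pla2g4c, Pla2g2d and Pla2g12a to Pla2g1b. Neighbours in that order from Pla2g5 to Pla2g2d had overlapping counting intervals wherever both are known, so their order is not settled. Pla2g12b, at 52.4 to 58.9 FPKM, lay just above Pla2g2a, at 44.8 to 51.7. Pla2g2a and Pla2g5 were far apart, at 48.2 and 5.55 FPKM, and Pla2g2d at 2.66 to 3.81 lay above Pla2g12a at 1.82 to 2.56. In the knockout Pla2g4c came first, then Pla2g12b and Pla2g2a, now well apart at 49.4 to 55.7 and 26.0 to 31.3, and Pla2g5 stood next to last. Of the FPKM summed over the 10 members, Pla2g4c held 2.70% in the wild type and 90.2% in the knockout. The sum itself was 131 FPKM in the wild type and 1024 in the knockout. Without Pla2g4c the sums were 127 and 101 FPKM, so the direction of the family total is that of 1 gene. Summed over the 7 secreted members the FPKM was 119 and 91.7, a log2 ratio of -0.38. Pla2g12b held 46.5% of that sum in the wild type and 57.2% in the knockout, while the share of Pla2g5 was 4.65% and 0.599%.

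Several members differed by more than counting error, as did many other genes. Read numbers could be taken from the exon length for 8 of the 9 members compared. Of these 8, the interval of the fold lay wholly above 1 for 2 genes, Pla2g4c and Pla2g4a, wholly below 1 for 2 genes, Pla2g5 and Pla2g2a, and held 1 for the other 4. Over the 11842 genes with reads from the exon length, 17.2% had intervals wholly above 1 and 27.9% wholly below, 45.1% in all. A counting interval that leaves out 1 is therefore common in these libraries.

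Phospholipases outside the 10 members were mostly close to 1. Of 27 listed genes that encode other phospholipases A2, related acyl hydrolases or the receptor of secreted forms, 25 were in the table and 14 were compared. Of these, 1 was at least 2-fold higher, 1 at least 2-fold lower and 12 lay within 2-fold, with a median log2 ratio of -0.04. Over all genes compared, 1.61% were at least 2-fold higher and 2.51% at least 2-fold lower. The higher gene of the 14 was Pla2g2e, which passed the filter only in the knockout, with 1 read in the wild type and 23 there. The lower gene was Plb1, the brush border phospholipase B that removes both fatty acids from dietary phospholipid, and the most abundant gene of these lists in the wild type. It had 62.6 FPKM there, from 12729 reads, and 26.5 in the knockout, from 5459 reads, 2.36-fold lower with an interval of 2.29 to 2.44. Pla2g16, the adipose phospholipase now named Plaat3, had 6.14 and 3.76 FPKM, 1.63-fold lower. Pafah1b3, a subunit of the intracellular platelet-activating factor hydrolase, had 16.3 and 12.2, and its partners Pafah1b1 and Pafah1b2 had 28.6 and 31.8, and 8.35 and 7.65. Pla2g7, the secreted platelet-activating factor hydrolase, had 6.68 and 8.21, and Pafah2, its intracellular relative, had 12.1 and 13.6. Of the patatin-like genes, the triglyceride lipase gene Pnpla2 had 33.1 and 33.2, Pnpla6 had 9.23 and 8.57, Pnpla7 had 1.73 and 1.48 and mitochondrial Pnpla8 had 4.38 and 5.59. The lysosomal enzyme gene Pla2g15 had 1.66 and 1.69. The cytosolic genes Pla2g4b, Pla2g4e and Pla2g4f were below 0.2 FPKM in both libraries, so that the high level of Pla2g4c was not shared by any other measured gene of its subfamily.

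Few genes of the steps that follow phospholipase A2 differed by 2-fold in the ratio with a pseudocount of 1. Such differences were few in the whole table too, at 4.12% of all genes compared. Nothing particular to these steps is therefore read from the counts. Of 17 genes of prostanoid synthesis, transport and breakdown, 15 were compared and all 15 lay within 2-fold, with a median log2 ratio of 0.01. Their highest ratio was that of Ptgs2, 1.95-fold higher in the knockout with an interval of 1.53 to 2.51. The carbonyl reductase Cbr1 had 58.4 and 80.8 FPKM, and Hpgd, which inactivates prostaglandins, had 148 and 195. The prostaglandin transporter Slco2a1 had 7.43 and 5.81, and the abundant reductase Prxl2b, named Fam213b in the table, had 103 and 93.8. Of 16 genes of lipoxygenases and leukotriene enzymes, 9 were compared, with 1 at least 2-fold higher and none at least 2-fold lower. Over all genes compared, 1.61% were at least 2-fold higher. The median of the list was 0.18, and 0.03 with no filter. The higher gene was Alox5, which makes leukotriene precursors, with 0.908 and 3.31 FPKM, 3.64-fold higher with an interval of 2.76 to 4.87. Its activating protein Alox5ap had 0.566 and 1.396, from 14 and 35 reads. Alox5ap counts as within 2-fold only once the pseudocount is added, and like Alox5 it reached 1 FPKM only in the knockout. Alox15, at 0.772 and 1.27, also passed the filter through its knockout level alone. The epoxide hydrolase Ephx2 had 42.3 and 56.3. The most abundant genes of that list, Dpep1 and Ggt1, which trim cysteinyl leukotrienes and also other peptides, had 192 and 219 FPKM, and 137 and 140. Tuft cells are known to express Alox5 and Alox5ap. Their markers were higher in the same library by the values above, and their part in the Alox5 and Alox5ap values was not tested.

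Of 12 genes that activate fatty acids or return them to lysophospholipids, 11 were compared. Of the 11, 1 was at least 2-fold higher and none at least 2-fold lower, with a median log2 ratio of 0.08. Over all genes compared, 4.12% were at least 2-fold higher or lower. The higher gene among the 11 was the acyl-CoA ligase Acsl3, with 6.19 and 13.9 FPKM. Acsl1 had 5.12 and 7.96, the abundant Acsl5 had 157 and 203, Lpcat3, which favours arachidonate, had 79.1 and 89.1, and Lpcat2 had 2.35 and 1.40. Of 14 genes that convert lysophospholipids, 12 were compared and all 12 lay within 2-fold, with a median of -0.09. Autotaxin Enpp2 had 5.04 and 7.13 FPKM, Gdpd1 had 106 and 86.2, Plpp2 had 109 and 96.0, Abhd12 had 31.4 and 37.6, and Lyplal1 had 2.80 and 2.26. Of 21 receptors of eicosanoids, platelet-activating factor and lysophosphatidic acid, 11 were compared and all 11 lay within 2-fold, with a median of -0.05. The leukotriene receptor gene Ltb4r2 had 4.79 and 3.27 FPKM, Lpar3 had 2.75 and 3.54, and the prostaglandin receptor gene Ptger2 had 1.11 and 0.753. The abundant Lpar5 and Lpar1 had 17.4 and 15.3, and 12.0 and 11.6.

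**Figure D4:**
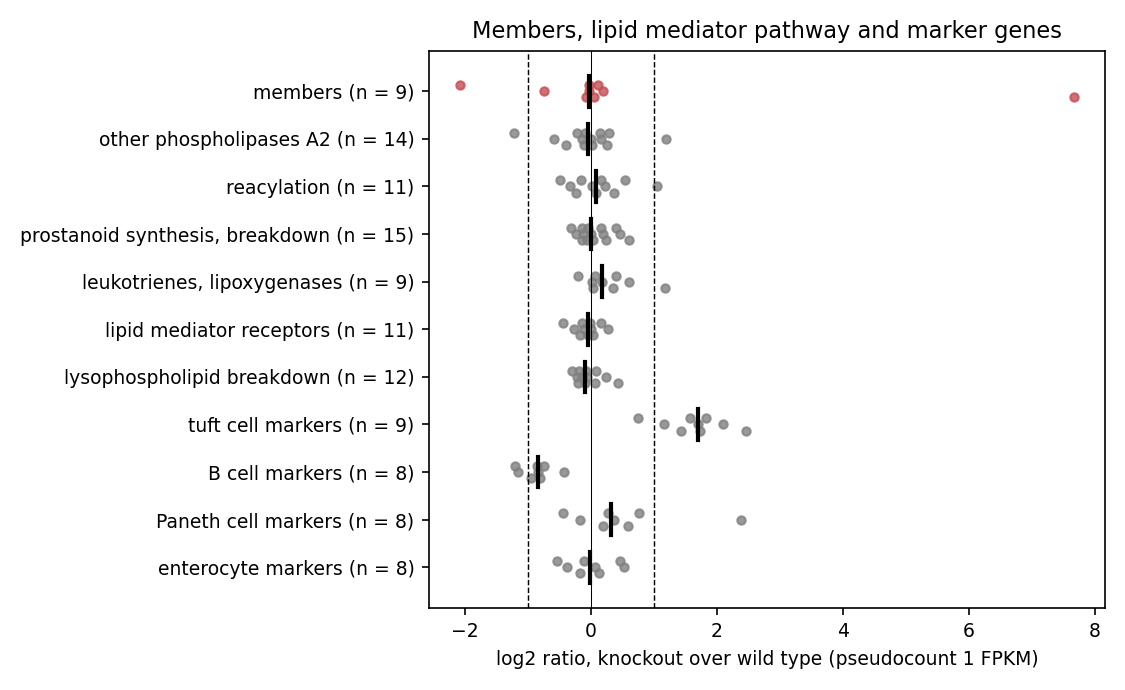
Log2 ratio of knockout over wild-type FPKM, with a pseudocount of 1, of each compared gene (points) and the median (black bar) of the members, of lists of the lipid mediator pathway and of cell type markers, with the number of genes in parentheses. Dashed lines mark 2-fold. The pathway medians lie between -0.09 and 0.18, the tuft cell median is 1.70 and the B cell median is -0.84.

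Some of the genes listed as markers of cells that respond to type 2 cytokines or make them also differed. Of 15 genes of a type 2 list, 10 were compared, with 3 at least 2-fold higher and none at least 2-fold lower. Over all genes compared, 1.61% were at least 2-fold higher. The filter lets in a gene through its knockout level alone, as with Ccl24 below, so the count leans to higher values. The median log2 ratio of the list was 0.60, and 0.32 with no filter. The most abundant genes of the list were the interleukin-13 receptor Il13ra1, at 46.4 and 48.3 FPKM, and the barrier protein gene Sprr2a3, at 5.31 and 89.2. The eosinophil chemokine Ccl24 had 0.886 and 4.07 FPKM, the interleukin-33 receptor Il1rl1 had 1.71 and 4.96, and the goblet cell product Retnlb had 2.31 and 4.89. Genes listed as mast cell and eosinophil markers summed to 10.2 and 30.0 FPKM. They were led by Kit at 4.44 and 7.90 and Siglecf at 1.296 and 7.75. Which cells those reads came from was not tested. Of these 10 markers only 5 were compared, with 3 at least 2-fold higher and 1 with a log2 ratio below 0. In the knockout 1 of the 10 was at 0, and with no filter their median log2 ratio was 0.16. T cell markers summed to 52.3 and 20.2 FPKM, led by Gzmb at 15.9 and 6.35 and Ccl5 at 16.2 and 4.13. Goblet cell markers summed to 5873 and 7746 FPKM, led by Tff3 at 1793 and 1849.9 and Zg16 at 1843 and 1749.8. The 2 goblet cell markers at least 2-fold higher, named after their values were seen, were Clca1 at 696 and 2059 FPKM and Spink4 at 511 and 1095.1. The other 6 goblet cell markers lay within 2-fold, and the median log2 ratio of that list was 0.15. Stromal and muscle markers summed to 517 and 526 FPKM, led by Acta2 at 210.2 and 208 and Myh11 at 129.5 and 132. The part of these cell types in the values of the phospholipases was not tested. The medians of low marker lists depend on the pseudocount: with 0.1 and 5 FPKM in place of 1, that of the tuft cell list was 2.24 and 0.77, that of the B cell list -1.38 and -0.30, and that of the mast cell and eosinophil list, 1.33 with 1, was 1.89 and 0.60.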

How the data were processed

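RNA of small intestine was taken up in TRIzol and its cDNA amplified by SMART-Seq II, per the labels' protocols. The authors deposited 1 table of FPKM values with 1 column per library. The submitters' processing notes list Bowtie2 2.2.3, HTSeq 0.6.0 and mm10 but give no roles. Annotation, strand setting, filters and pooling were not given in the sources used here. Gene identifiers were joined to GENCODE M21 (27222 of 27275 matched). FPKM times summed exon length stepped in whole reads, within 0.01, for 90.5% of the nonzero values of either library, which gave the library totals and read numbers. For 1633 genes compared, the smallest whole pair with the observed ratio was used. A count of 0 allows up to 3 reads, or 0.172 and 0.170 FPKM for 1 kb in the wild-type and knockout libraries. Folds are plain FPKM ratios with Clopper-Pearson intervals, and levels have exact Poisson intervals. No molecular identifiers are described, so reads can be PCR copies of 1 molecule, and these intervals cover counting error only.

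Counts of genes use a pseudocount of 1 FPKM, which understates differences of low genes, and the filter of 1 FPKM. With 1 library per genotype no test was made. The 19 lists hold 220 entries, 4 of them not analysed here and 3 matched by an older symbol. Of the tuft cell markers first listed, 1 is not reported here. The genes named are the members, other phospholipases A2 of at least 1 FPKM, for each pathway list the 4 largest absolute ratios and the 2 highest means, for marker lists the 2 highest means and those at 0 in both, and chromosomal neighbours. The members and lists were chosen with earlier results of these data known. Alternatives were other pseudocounts, filters and scalings. Scripts ran in Python 3.11.15 with SciPy 1.17.1 and were tested on simulated data. Promoter sequences are from RefSeq, GRCm38.p6, and the motifs were chosen with the results known.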

Additional observations from a re-analysis of the deposited data

How the results depend on the processing

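The count of members at least 2-fold higher was 1 under every pseudocount, filter and scaling tried. The count at least 2-fold lower was also 1, except with a pseudocount of 5, where it was 0 because Pla2g5 had a log2 ratio of -0.93. The counts over all genes, 217 higher and 338 lower, were 355 and 575 when the pseudocount was 0.1, 61 and 122 when it was 5, and 97 and 193 among genes of at least 5 FPKM. The log2 ratio of the FPKM summed over all members, 2.97, was 3.03 with the knockout values scaled to a median ratio of 0, and -0.34 without Pla2g4c. That of the secreted members, -0.38, was -0.70 without Pla2g12b. Of 40 alternative values of single members, 32 stayed within the counting interval of the main value and 8 moved outside it. Medians of lists have no interval, and 4 of their 54 alternative values moved by over 1.5-fold. Those were the tuft cell median, 0.77 with a pseudocount of 5, and the mast cell and eosinophil median, 0.60 with a pseudocount of 5 and 0.16 with no filter. The last was the median of the other secreted phospholipases A2, which rests on 2 compared genes, Pla2g2f and Pla2g2e. It was 0.48 with a pseudocount of 1 and 1.49 with 0.1, and Pla2g2e had 1 read in the wild type. No member or list median past 2-fold changed sign. Pla2g4c had log2 ratios of 7.99 and 6.77 with pseudocounts of 0.1 and 5. The signs of Pla2g10 and Pla2g12a, both within counting error, turned with the scaling to a median of 0, at 0.02 and 0.01. No paired analysis was possible because there is 1 library per genotype, and leaving out a library was not possible for the same reason. Pla2g1b was the 1 member with 3 reads or fewer in a library.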
